A study of Mus musculus with 4 samples.

Results

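The ERBB receptors, 3 of the ligands that act on them and the adaptor gene Grb7 were followed as raw transcript counts in 4 single-cell RNA libraries of MMTV-neu mice. The members were listed by name and were 7 of the 27998 genes in the files: the receptor genes Erbb2, Erbb3 and Egfr, the ligand genes Tgfa, Hbegf and Areg, and Grb7, which encodes an adaptor and is neither a receptor nor a ligand. All 7 had counts in at least one library. The rule names the genes and uses no measured value of theirs. With 1 library per group no comparison between libraries allowed a test.

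In the background biology, ERBB receptors are cell-surface tyrosine kinases that work in pairs. Egfr binds Tgfa, Hbegf and Areg, Erbb3 binds neuregulins but has little kinase activity of its own, and Erbb2 binds no known ligand and serves as the preferred partner of the others. The ligands are made as membrane-anchored proteins and are released by ADAM proteases, and Grb7 is an SH2-domain adaptor that binds activated Erbb2 and lies beside it in the genome.

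The late lung library came from lungs of mice over 20 weeks of age that carried primary tumors, and the early lung library from lungs of mice of 14 to 18 weeks with no palpable tumor. The primary tumor library came from breast tumors of the older mice, and the early lesion library from mammary glands of the younger ones. All 4 groups were MMTV-HER2/Neu mice on the FvB background, which carry rat Erbb2 under a mouse mammary tumor virus promoter that is active in mammary epithelium, and no group without the transgene was included. Cells were sorted as CD45- and HER2+, so the protein product of one member was used to choose the cells, and the sources do not say whether a library holds 1 mouse or several.

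A barcode was taken as a cell with at least 500 UMIs (each UMI marks 1 RNA molecule that was captured), at least 250 genes and at most 20% mitochondrial UMIs. This left 210 late lung, 185 early lung, 434 primary tumor and 1318 early lesion cells, with medians of 811, 772, 1657.5 and 2360 UMIs and with 412032, 203676, 1825842 and 3926447 UMIs in all. No cell barcode was shared between libraries. The labels call the cells of all libraries breast cancer cells, but mammary luminal markers summed to 2493 and 1272 counts per 1000000 UMIs (CPM) in the late and early lung, against 86786 and 163183 CPM in the tumor and lesion. The 11 alveolar type 1 markers were all detected in both lungs, at 11489 CPM in the late and 16477 CPM in the early lung, so the lung values below are values of cells with mainly lung profiles. Airway secretory markers stood higher, at 85804 CPM in the late and 115350 CPM in the early lung. Of these Scgb1a1 alone made 82414 and 112016 CPM, though no cluster was named as airway cells. Ptprc, which encodes CD45, had 0 counts in both lungs and in the tumor and 4 in the lesion. Cells over 10000 UMIs numbered 8 in the late lung, 1 in the early lung, 18 in the tumor and 21 in the lesion, with 42.2%, 5.60%, 54.5% and 6.50% of the UMIs of their libraries. No doublet caller was run, and values are given without these cells where they matter.

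The transcription start regions of 3 genes that were higher together in the tumor are shown as the mouse genes' own start regions; the transgene copy of Erbb2 is instead transcribed from the viral promoter. Each window runs from 250 bases before to 30 bases after the start in RefSeq's GRCm38.p6 annotation, and capitals mark matches, on either strand, to GAGGAA, a core recognised by ETS-family factors, or to GCCNNNGGC, the AP-2 consensus.
Erbb2, chr11:98412234-98412513, plus strand: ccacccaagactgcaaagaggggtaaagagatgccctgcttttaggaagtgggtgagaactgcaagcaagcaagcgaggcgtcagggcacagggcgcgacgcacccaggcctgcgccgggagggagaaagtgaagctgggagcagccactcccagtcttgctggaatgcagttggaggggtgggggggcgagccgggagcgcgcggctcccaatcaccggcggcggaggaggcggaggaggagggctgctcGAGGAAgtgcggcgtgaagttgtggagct
Egfr, chr11:16751953-16752232, plus strand: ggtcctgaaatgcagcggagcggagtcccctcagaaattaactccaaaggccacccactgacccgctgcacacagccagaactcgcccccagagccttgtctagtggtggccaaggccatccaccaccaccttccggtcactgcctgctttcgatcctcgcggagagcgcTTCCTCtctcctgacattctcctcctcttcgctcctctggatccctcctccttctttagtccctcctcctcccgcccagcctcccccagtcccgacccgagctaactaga
Tgfa, chr6:86194972-86195251, plus strand: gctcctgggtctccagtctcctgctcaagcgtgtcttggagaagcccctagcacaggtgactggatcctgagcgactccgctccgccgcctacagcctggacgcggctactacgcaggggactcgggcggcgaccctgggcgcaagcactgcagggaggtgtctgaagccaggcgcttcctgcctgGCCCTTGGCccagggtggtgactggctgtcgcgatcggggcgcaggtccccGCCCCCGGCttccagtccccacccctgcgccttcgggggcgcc
The Erbb2 window held 1 GAGGAA, which begins at base 2 of the transcript. The Egfr window held 1 GAGGAA on the minus strand, and the Tgfa window 2 matches to GCCNNNGGC. No 2 matches overlapped. Among 32851 mouse promoter windows of the same length, 26.0% held GAGGAA and 15.4% held GCCNNNGGC, so a match is a description of these letters and not evidence of binding. The table held 4 of the 7 members, and the fourth was Areg.

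Among the receptors, Erbb2 had 3 UMIs in the late lung (7.28 CPM), 3 in the early lung (14.7 CPM), 87 in the primary tumor (47.6 CPM) and 30 in the early lesion (7.64 CPM). Erbb3, the partner receptor for neuregulins, had 1 UMI in the late lung (2.43 CPM), 2 in the early lung (9.82 CPM), 89 in the tumor (48.7 CPM) and 41 in the lesion (10.4 CPM). Egfr, the receptor for all 3 member ligands, had 0 UMIs in the late lung, 2 in the early lung (9.82 CPM), 38 in the tumor (20.8 CPM) and 9 in the lesion (2.29 CPM). Over all cells each receptor had its highest level in the tumor. The 95% Poisson intervals of Erbb2 (38.2 to 58.8 CPM in the tumor, 5.16 to 10.9 CPM in the lesion) did not overlap, while that of the early lung (3.04 to 43.0 CPM) reached into the tumor's. The intervals of Egfr overlapped between early lung (1.19 to 35.5 CPM) and tumor (14.7 to 28.6 CPM), and without cells over 10000 UMIs Egfr stood at 10.4 CPM in the early lung and 7.23 CPM in the tumor. In each lung 2 of the 3 Erbb2 UMIs lay in 1 cell over 10000 UMIs. No lung receptor count was above 3, and 3 UMIs make 7.28 CPM in the late and 14.7 CPM in the early lung, so an order of the lung libraries among themselves or against the lesion could not be read. The files have 1 feature for Erbb2, and counts of the rat transgene and of the mouse gene are not separated. How many transgene transcripts were counted under this feature is not known, so its level need not be that of the transgene. Because 1 UMI stands for 1 molecule caught at its 3' end, CPM values are not scaled by gene length. All intervals cover counting error only.

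Grb7 lies on chromosome 11 of mm10 at 98446394 to 98455373, 8677 bases downstream of Erbb2 (98412470 to 98437716) and on the same strand. It had 0 UMIs in the late lung, 1 in the early lung (4.91 CPM), 34 in the tumor (18.6 CPM) and 29 in the lesion (7.39 CPM). Mien1, on the opposite strand, shares 9 bases with the 3' end of Erbb2, and whether the authors' counting used strand was not given.

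Among the ligands, Hbegf, a heparin-binding ligand of Egfr and Erbb4, had 28 UMIs in the late lung (68.0 CPM), 19 in the early lung (93.3 CPM), 2 in the tumor (1.10 CPM) and 3 in the lesion (0.764 CPM). Tgfa, which acts through Egfr, had 3 UMIs in the late lung (7.28 CPM), 3 in the early lung (14.7 CPM), 40 in the tumor (21.9 CPM) and 1 in the lesion (0.255 CPM). Areg, the ligand best known from ductal growth of the mammary gland, had 1 UMI in the late lung, 4 in the lesion and 0 in both others. Of the 3 ligands Hbegf was thus highest in the lung cells and Tgfa in the tumor, while Areg was barely detected in any library. The tumor's place for Tgfa rests on its cells over 10000 UMIs: without such cells Tgfa stood at 12.6 CPM in the late lung (2.60 to 36.8), 15.6 CPM in the early lung (3.22 to 45.6), 4.82 CPM in the tumor (1.31 to 12.3) and 0.272 CPM in the lesion. Summed over the 3 ligands, the level was 77.7 and 108 CPM in the late and early lung, against 23.0 and 2.04 CPM in the tumor and lesion. Summed over the 3 receptors it was 9.71 and 34.4 CPM in the lungs, against 117 and 20.4 CPM in the tumor and lesion. Without cells over 10000 UMIs the tumor held 6.02 CPM of the ligands and 42.2 CPM of the receptors.

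**Figure D1:**
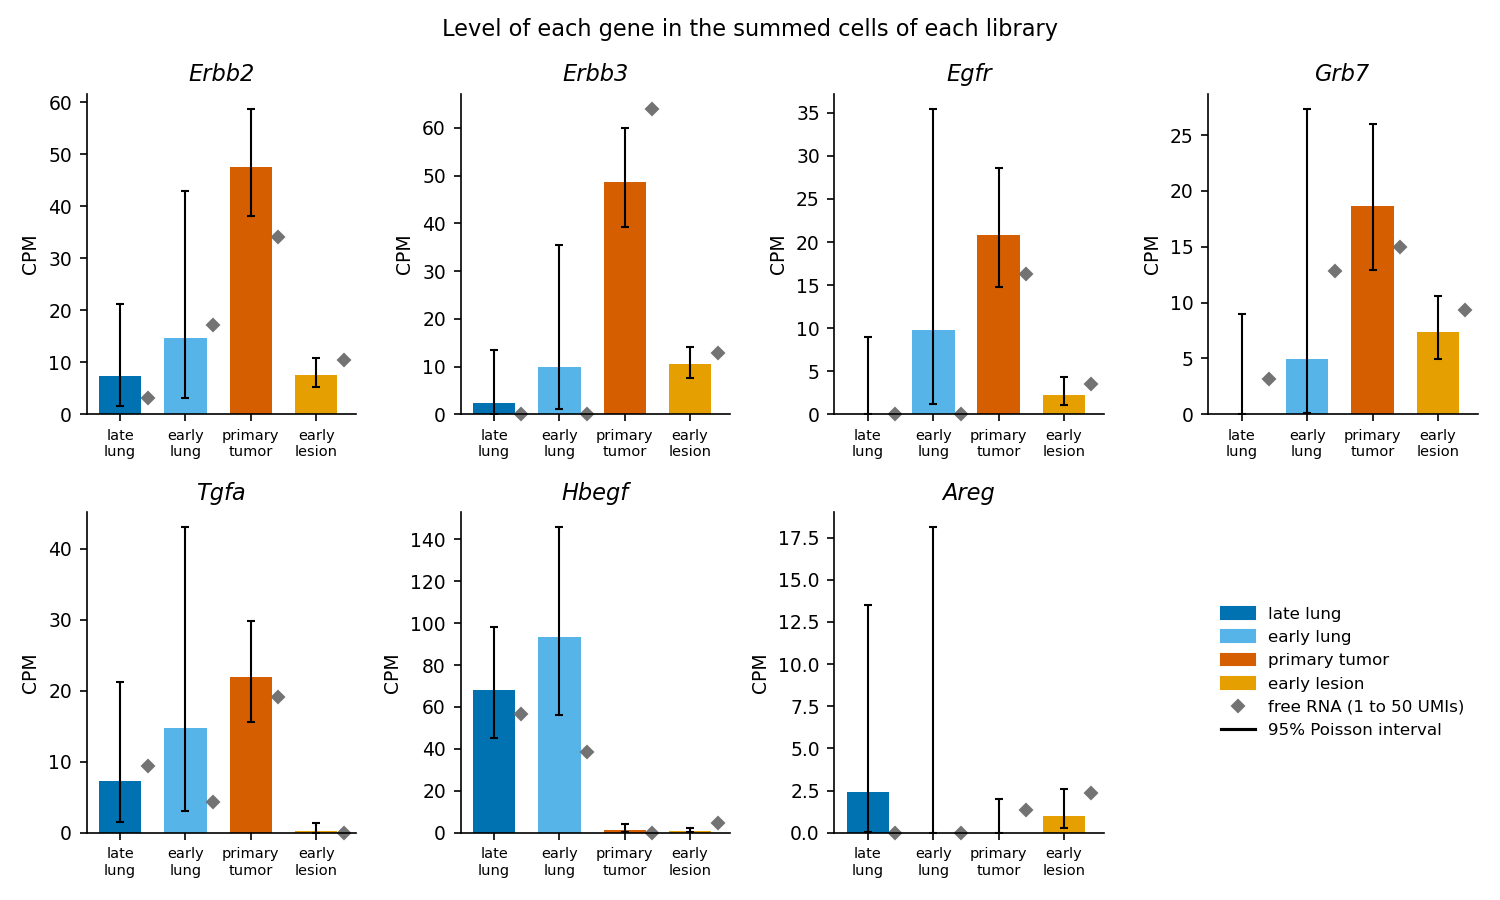
CPM (vertical axis, linear) of each gene in the summed cells of the 4 libraries, with exact 95% Poisson intervals; diamonds give the level in free RNA from barcodes of 1 to 50 UMIs. Erbb2, Erbb3, Egfr, Grb7 and Tgfa stand highest in the primary tumor and Hbegf in the 2 lung libraries, and in the early lesion every bar except that of Tgfa lies below its diamond.

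Free RNA, taken from barcodes with 1 to 50 UMIs, gives the level that RNA from outside a cell would have. The counts it would give are an upper limit, as they take all RNA of the cells as free RNA. A level at or below it does not show that the cells lack the gene. In the lesion, Erbb2 stood at 7.64 CPM in cells and 10.5 CPM in free RNA, Erbb3 at 10.4 and 12.9 CPM, Egfr at 2.29 and 3.51 CPM, and Grb7 at 7.39 and 9.35 CPM. These lesion levels were below the free RNA, so they could not be told apart from background. In the tumor Erbb2 stood at 47.6 CPM in cells and 34.0 CPM in free RNA, Egfr at 20.8 and 16.3 CPM, Tgfa at 21.9 and 19.1 CPM. Erbb3 stood at 48.7 CPM in tumor cells and 64.0 CPM in free RNA, so over the whole tumor its level too could not be told apart from background. The free RNA of the tumor thus also held more Erbb2, Erbb3, Egfr and Tgfa than the free RNA of the lesion. In the lungs Hbegf stood at 68.0 CPM in late lung cells and 56.5 CPM in late free RNA, and at 93.3 CPM in early lung cells and 38.5 CPM in early free RNA. Erbb3 and Egfr had 0 UMIs in the free RNA of both lungs.

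Between the primary tumor and the early lesion, which asks how the cells of an overt tumor differ from those of the gland before one is palpable, the 5 members with at least 20 counts over both sums were all at least 2-fold higher in the tumor. Of all 9811 genes compared, 25.6% were at least 2-fold higher and 7.12% at least 2-fold lower, with a median log2 ratio of 0.33. Tgfa had 40 UMIs in the tumor and 1 in the lesion, a log2 ratio of 5.86 (3.87 to 11.77). Tgfa and Egfr (38 and 9 UMIs) met the minimum through their tumor counts. Egfr was 8.72-fold higher (log2 ratio 3.12, 2.11 to 4.42), Erbb2 6.17-fold (2.63, 2.03 to 3.29), Erbb3 4.64-fold (2.21, 1.67 to 2.79) and Grb7 2.51-fold (1.33, 0.58 to 2.10). Hbegf and Areg, with 5 and 4 counts over both sums, were too sparse to compare. Without the cells over 10000 UMIs, Erbb2 had 14 UMIs in the tumor and 29 in the lesion (log2 ratio 1.12, 0.060 to 2.06), Grb7 13 and 29 (1.02, -0.080 to 1.98) and Erbb3 15 and 38 (0.83, -0.16 to 1.70). Then 2 of the 3 members still compared, Erbb2 and Grb7, were at least 2-fold higher, against 14.9% of 8724 genes. Egfr had 6 and 7 UMIs and Tgfa 4 and 1, under the minimum of 20. With median-of-ratios or TMM scaling, which put the all-gene median at -0.11 and -0.076, 16.5% and 16.9% of genes were at least 2-fold higher and 13.4% and 13.0% lower, and Grb7 stood at 0.90 and 0.93, under 2-fold.

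The 18 tumor cells over 10000 UMIs carried most of the receptor counts. They had between 12269 and 125434 UMIs (median 42697), and they held 83.9% of the Erbb2, 83.1% of the Erbb3, 84.2% of the Egfr, 61.8% of the Grb7 and 90.0% of the Tgfa UMIs of the tumor, against 54.5% of all its UMIs. A single one of these cells held 0 to 9 Erbb2 UMIs (median 3.5) and 0 to 13 Erbb3 UMIs (median 3), with each gene detected in 15 of the 18. On the CPM scale Erbb2 stood at 73.3 CPM in these cells and 16.9 CPM in the other 416 tumor cells (log2 ratio 2.08, 1.28 to 3.06). Erbb3 stood at 74.3 and 18.1 CPM, Egfr at 32.1 and 7.23 CPM, and Tgfa at 36.2 and 4.82 CPM, and each of the 4 genes was at least 4-fold higher in the large cells. Grb7 was closer, at 21.1 and 15.7 CPM (0.41, -0.64 to 1.55). Of 7487 genes compared within the tumor, 25.8% were at least 2-fold higher in the large cells and 5.82% at least 2-fold lower, against 4 and 0 of the 5 members.

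Set against the free RNA of the tumor, the large cells held 73 Erbb2 UMIs where free RNA alone would give 33.9, 32 Egfr UMIs where it would give 16.3, and 36 Tgfa UMIs where it would give 19.0. Their 74 Erbb3 UMIs were close to the 63.7 that free RNA would give. In the other tumor cells the summed counts were below what free RNA would give: 14 against 28.3 for Erbb2 and 15 against 53.1 for Erbb3. Egfr had 6 against 13.6 and Tgfa 4 against 15.8, so these sums could not be told apart from background. Grb7 had 13 UMIs there, against 12.4 expected. The sums cover cells of different clusters, and whether the smaller cells of any 1 cluster stood above free RNA was not tested. In the lesion the 21 cells over 10000 UMIs (10020 to 20306 UMIs) held 1 Erbb2, 3 Erbb3, 2 Egfr, 0 Grb7 and 0 Tgfa UMIs. Set against the other lesion cells, none of the 3 members compared there was at least 2-fold higher, beside 7.55% of 8247 genes, and Grb7, with 0 and 29 UMIs, had a log2 ratio of -2.04 that is no bound, beside 8.84% of genes at least 2-fold lower.

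**Figure D2:**
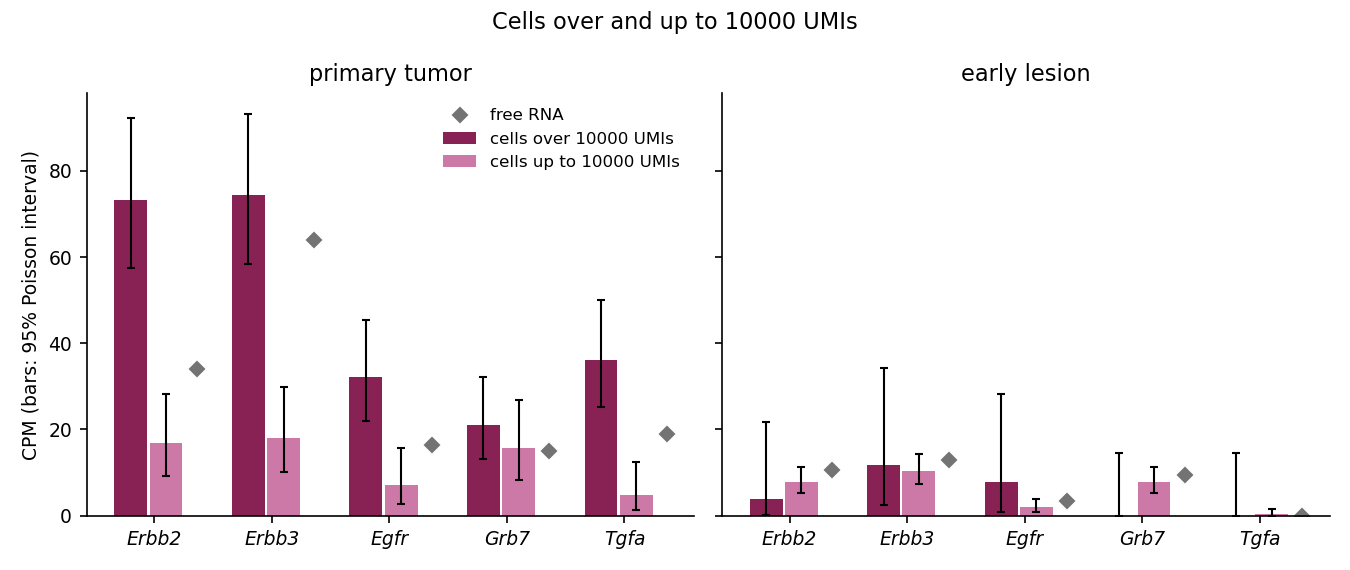
CPM (vertical axis, linear, same scale in both panels) of 5 genes in cells over and up to 10000 UMIs of the primary tumor and the early lesion, with exact 95% Poisson intervals; diamonds give the free RNA level of the library. In the tumor Erbb2 stands at 73.3 CPM in the large and 16.9 CPM in the other cells, with free RNA at 34.0 CPM between them.

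Depth and RNA quality moved with this split, and their part in it was not tested. The median mitochondrial share was 4.63% in the 18 large tumor cells and 0.459% in the other 416. The mammary luminal markers summed to 99581 CPM in the large and 71433 CPM in the other tumor cells. The endothelial list stood at 36.2 and 61.4 CPM, with 1 and 3 of its 13 markers detected, and the immune list at 2.01 and 3.61 CPM. Alveolar type 1 markers summed to 5150 and 1558 CPM, of which Aqp5 alone made 5100 and 1517 CPM, and Rtkn2, Pdpn, Clic5, Spock2 and Igfbp2 were at 0 in the whole tumor.

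Pairs of receptors in the same tumor cell were detected mainly in the large cells. Erbb2 and Erbb3 were both detected in 13 tumor cells, and all 13 were among the 18 over 10000 UMIs, with 0 among the other 416. Erbb2 and Tgfa were both detected in 11 tumor cells and Erbb3 and Tgfa in 12, again only in large cells, as were Egfr and Tgfa in 8. Cells with so many UMIs are more likely to show any pair. Erbb2 and Erbb3 were each detected in 15 of the 18, so most of their overlap was bound to occur and is no separate result. Among the other 416 cells only 14 and 15 held them, too few to read the 0. In the lesion, Erbb2 and Erbb3 were both detected in 3 of 1318 cells.

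Clusters were built with the members and the other ERBB pathway genes left out, so that they did not rest on them. In the tumor, a cluster of 94 cells led by Aqp5, Col11a1, Nf1 and Col9a1, which held 17 of the large cells, had 78 Erbb2 UMIs (73.2 CPM), 84 of Erbb3 (78.8 CPM), 34 of Egfr (31.9 CPM) and 38 of Tgfa (35.7 CPM). A cluster of 330 cells led by Tesc, Arg1, Egln3 and Aldoc had 9 Erbb2 UMIs (12.0 CPM), 4 of Erbb3 (5.33 CPM), 4 of Egfr (5.33 CPM) and 2 of Tgfa (2.67 CPM). Grb7 differed less, with 23 UMIs (21.6 CPM) and 11 UMIs (14.7 CPM). The 17 large cells of the cluster of 94 held 73 of its 78 Erbb2, 74 of its 84 Erbb3, 32 of its 34 Egfr and 36 of its 38 Tgfa UMIs. The receptors and Tgfa of the tumor were therefore mainly counts of the large cells of 1 cluster. The split by cluster and the split by size thus rest largely on the same counts, and the smaller cells of the 2 clusters were not compared. The median mitochondrial share of that cluster was 9.14%, against 0.388% in the other.

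In the lesion, Erbb3 stood above the free RNA level of 12.9 CPM (8.06 to 19.5) in 2 clusters, the highest of those looked at. The intervals of both clusters overlapped that of the free RNA. A cluster of 118 cells led by Clu, Psat1, Gadd45g and Fancl had 10 Erbb3 UMIs (40.0 CPM, 19.2 to 73.7) and 5 Erbb2 UMIs (20.0 CPM, 6.50 to 46.7). A cluster of 43 cells led by the mitotic genes Ccnb1, Cenpa, Cdc20 and Ckap2 had 6 Erbb3 UMIs (37.8 CPM, 13.9 to 82.3). In the 3 mammary luminal-like clusters Erbb3 stood between 6.20 and 8.72 CPM, and in the largest cluster, led by Krt14 and Rspo1, at 7.48 CPM (3.42 to 14.2). A cluster of 69 cells led by Chil1 and Spp1 had 0 Erbb3 UMIs, which allows up to 21.1 CPM at 3 counts. The median mitochondrial share was 3.28% in the Clu cluster, against 0.108% to 0.140% in the mitotic, luminal-like and Krt14 clusters. The 4 Areg UMIs of the lesion lay in 2 cells of the Krt14 cluster.

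The wider pathway was read from 5 lists of further genes, of which 55 were in the files, all those listed but Erbin, which the files hold under its older symbol Erbb2ip, also listed. Between tumor and lesion, 23 of the 40 list genes with enough counts were at least 2-fold higher in the tumor and 0 at least 2-fold lower, beside 25.6% and 7.12% of all genes. Of the other receptor and ligands, 3 of 3 compared were higher (median log2 ratio 4.81): Egf, an Egfr ligand, with 43 UMIs in the tumor and 1 in the lesion (5.96, 3.98 to 11.87), Nrg2, a neuregulin, with 19 and 1 (4.81, 2.70 to 10.73), and Btc with 18 and 19 (1.03). Egf and Nrg2 reached the minimum almost wholly through their tumor counts, so 3 of 3 is no result about this list. Without cells over 10000 UMIs, 0 of 1 compared was higher. Erbb4, the fourth receptor, had 14 UMIs in the tumor and 3 in the lesion, under the minimum. Of the ligand-processing genes 3 of 7 were higher (median 0.86), among them the shedding protease Adam12, with 24 UMIs in the tumor and 0 in the lesion and so at least 17.2-fold higher, and Adam15 (1.76). Of the adaptors 7 of 13 were higher (median 1.03), led by the Ras exchange factor Sos2 (3.13), Nck1 (1.69), the PI3-kinase subunit Pik3cb (1.55) and Grb2 (1.41).

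Inhibitors and turnover genes were higher in 7 of 12 (median 1.51). Errfi1, which encodes a feedback inhibitor that binds the Egfr and Erbb2 kinase domains, had 409 UMIs in the tumor and 131 in the lesion (224 and 33.4 CPM; log2 ratio 2.74, 2.46 to 3.04). Lrig3, with 17 UMIs in the tumor and 4 in the lesion, had a log2 ratio of 3.06 and Socs5, with 27 and 14, one of 2.03. Of the chromosomal neighbours of Erbb2, 3 of 5 were higher (median 1.16), with Mien1 at 748 UMIs in the tumor and 629 in the lesion (1.35, 1.20 to 1.51). Unlike the receptors, Errfi1 and Mien1 were not concentrated in the large tumor cells: Errfi1 stood at 211 CPM in them and 239.8 CPM in the other tumor cells (log2 ratio -0.19, -0.47 to 0.10), and Mien1 at 335 and 499 CPM (-0.57, -0.78 to -0.36). Without cells over 10000 UMIs, Errfi1 kept a log2 ratio of 2.78 (2.45 to 3.11), Nck1 had 2.03 (1.68 to 2.38) and Mien1 1.63 (1.45 to 1.82). Egf, Nrg2, Adam12, Sos2 and Lrig3 fell under the minimum without them. Sos2 then had 2 UMIs in the tumor and 8 in the lesion, and Lrig3 1 and 3. In that setting 6 list genes of 31 compared were at least 2-fold higher and 3 (Adam17, Gab1 and Stard3) at least 2-fold lower, beside 14.9% and 12% of all genes.

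**Figure D3:**
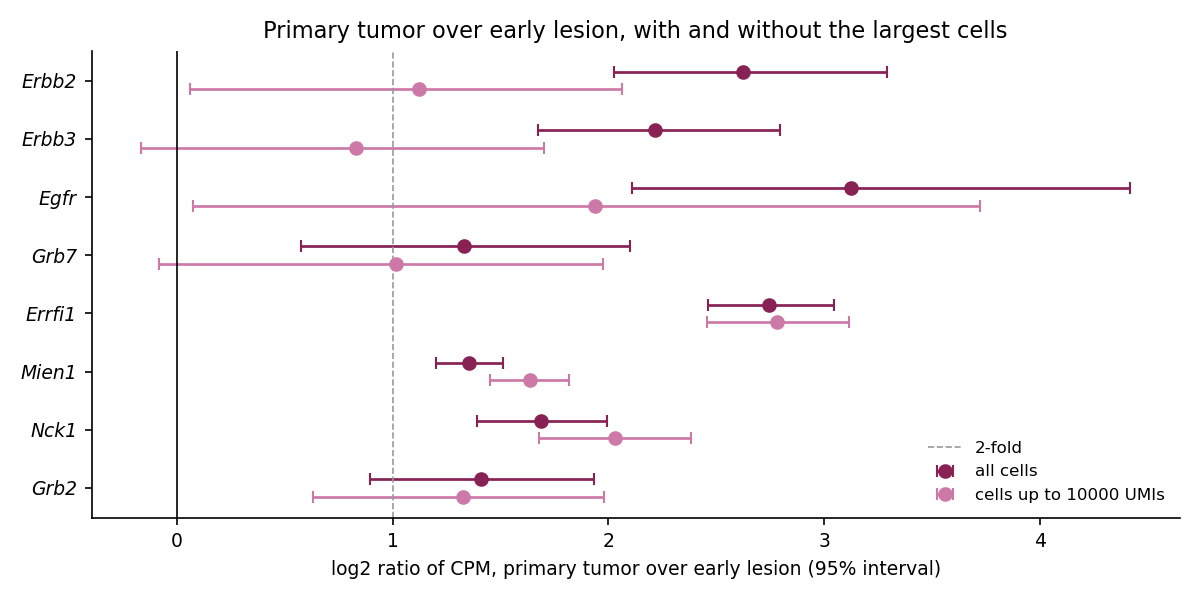
Log2 ratio of CPM, primary tumor over early lesion (horizontal axis), with exact 95% intervals for counting error, over all cells and over cells up to 10000 UMIs; the dashed line marks 2-fold. Errfi1, Mien1, Nck1 and Grb2 are other pathway genes picked for display after their values were seen, and the receptors lie closer to 0 without the large cells while Errfi1 stays near 2.78.

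Between the late and the early lung, only Hbegf had enough counts to compare. It had 28 UMIs in the late and 19 in the early lung (68.0 and 93.3 CPM), a log2 ratio of -0.47 (-1.35 to 0.46) that is within 2-fold. Of the 4552 genes compared, 12.6% were higher by 2-fold or more and 4.96% lower in the late lung. Without cells over 10000 UMIs Hbegf stood at 96.6 CPM in the late and 98.8 CPM in the early lung (-0.039, -0.97 to 0.92), where 6.02% of 3192 genes were at least 2-fold higher and 5.2% at least 2-fold lower. The interval leaves room for a difference of nearly 2-fold in either direction. The other 6 members had 6 counts or fewer over both lungs. Of the list genes compared, 4 of 22 exceeded 2-fold upward in the late lung, among them Cbl, a ubiquitin ligase that marks activated receptors, with 21 UMIs in the late and 1 in the early lung (2.82, 0.74 to 8.75), and 1 was lower, the Erbb2 neighbour Stard3 (-1.75, -3.07 to -0.57). With such large cells left out, 2 of 13 were higher and 3 lower, Cbl (12 and 1 UMIs) was under the minimum, and Stard3 had 5 and 17 UMIs (-1.98, -3.87 to -0.58).

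In the lungs Hbegf lay mainly in 2 cell classes. In alveolar type 1-like cells, the thin gas-exchange epithelium, it had 13 UMIs in 94 late lung cells (160 CPM, 85.3 to 274) and 12 in 62 early lung cells (194 CPM, 100 to 339), where free RNA alone would give 4.58 and 2.38. In pericyte or smooth muscle-like cells, whose leading genes also include the fibroblast genes Dcn and Col3a1, it had 7 UMIs in 32 late lung cells (159 CPM, 63.8 to 327) and 5 in 35 early lung cells (158 CPM, 51.2 to 368), where free RNA would give 2.49 and 1.22. In endothelial-like cells it had 6 UMIs in 58 late lung cells (28.4 CPM, 10.4 to 61.8) and 2 in 74 early lung cells (27.6 CPM, 3.34 to 99.5). Free RNA would give 11.9 and 2.79 there, so these could not be told apart from background. The order was the same in both lungs, with the first 2 classes not separable by their intervals.

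Over both lungs, Hbegf stood at 175 CPM in alveolar type 1-like cells (113 to 258), at 158 CPM in pericyte or smooth muscle-like cells (81.8 to 277) and at 28.2 CPM in endothelial-like cells (12.2 to 55.5). The intervals of the first 2 classes lay above that of the third, while the median depth of the classes was close, at 766, 740 and 750.5 UMIs. A cluster of 21 late and 14 early lung cells led by Hbb-bs, Hba-a1, Hba-a2 and Scgb1a1, the last a club-cell secretory gene, held no Hbegf, and the count of 0 in its 96946 UMIs allows up to 30.9 CPM at 3 counts. Of the 28 Hbegf UMIs of the late lung, the last 2 lay in 1 of 5 late lung cells that joined the Tesc and Arg1 cluster of the tumor. Those 5 cells had 0 UMIs of Erbb2, Erbb3, Egfr, Grb7 and Tgfa, but 3 counts in their 16146 UMIs would make 186 CPM, so tumor levels were not detectable at this depth. Without cells over 10000 UMIs the late endothelial-like cells had 1 Hbegf UMI (15.9 CPM), and alveolar type 1-like cells, none of which was that large, were unchanged.

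The other members were sparse in the lung classes. Of the 6 Tgfa UMIs of both lungs, 5 lay in alveolar type 1-like cells (35.0 CPM, 11.4 to 81.6), where free RNA would give 1.03, and 1 in an endothelial-like cell. All 3 Erbb3 UMIs lay in alveolar type 1-like cells. Erbb2 had 1 UMI in alveolar type 1-like, 3 in endothelial-like and 2 in pericyte or smooth muscle-like cells, and free RNA would give 1.31, 1.90 and 0.681. Egfr had 1 UMI in alveolar type 1-like and 1 in pericyte or smooth muscle-like cells, and Grb7 1 in alveolar type 1-like cells. Hbegf shared a cell with Tgfa in 2 late lung cells, and with Erbb3 in 1 late and 1 early lung cell. The single Areg UMI of the lungs lay in the cluster led by Hbb-bs and Scgb1a1.

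**Figure D4:**
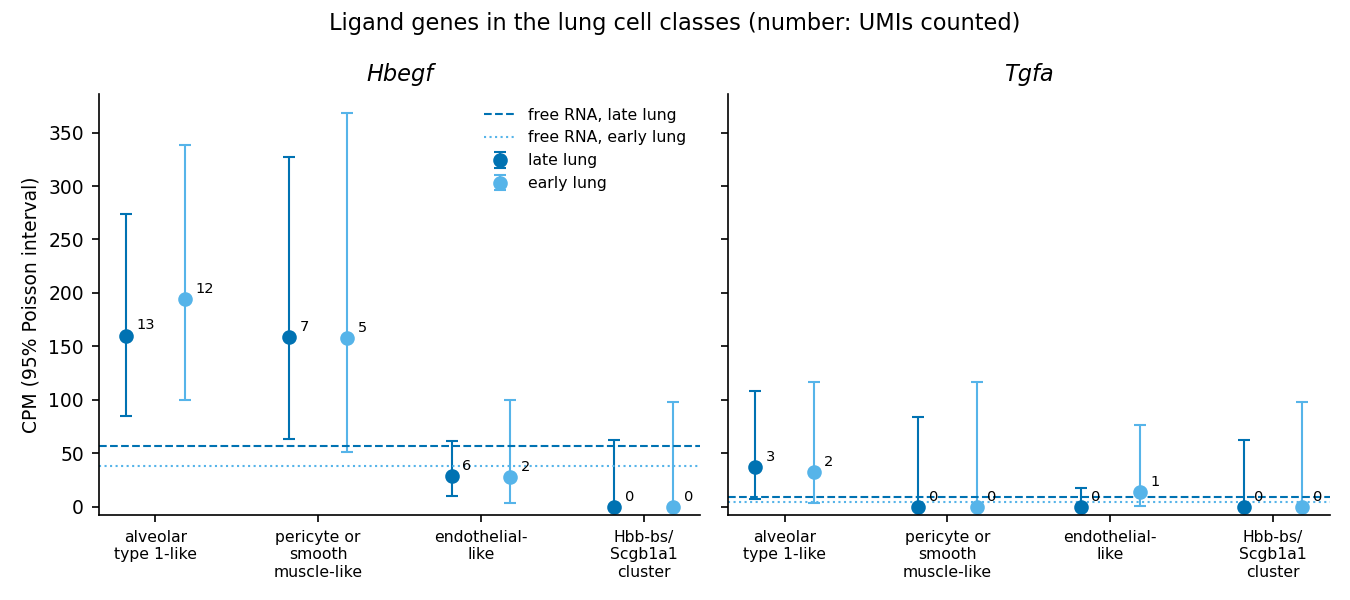
CPM (vertical axis, linear) of Hbegf and Tgfa in the lung cell classes of the late and early lung, with exact 95% Poisson intervals, the UMI count beside each point and the free RNA level of each library as a horizontal line. Hbegf lies between 158 and 194 CPM in the alveolar type 1-like and pericyte or smooth muscle-like cells of both lungs and below the free RNA lines in the other 2 groups of cells.

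Between the late lung and the primary tumor, 6 members had enough counts: 1 was at least 2-fold higher in the lung and 5 at least 2-fold lower, where 22.5% of 8740 genes were higher and 21.4% lower. Hbegf had 28 UMIs in the late lung and 2 in the tumor (log2 ratio 5.66, 3.97 to 9.07). Erbb2 had 3 and 87 (-2.50, -5.02 to -1.12) and Erbb3 1 and 89 (-3.75, -9.65 to -1.81). With 0 counts in the late lung, Egfr was at least 2.86-fold lower and Grb7 at least 2.56-fold lower. Tgfa had 3 and 40 UMIs (-1.38, -3.93 to 0.061). Without cells over 10000 UMIs, Hbegf (23 and 1 UMIs, 5.77, 3.70 to 11.69) was the only member still compared, against 21.5% of 5411 genes higher and 25% lower, and the receptors, with 1 UMI or 0 in the lung, were under the minimum. Tgfa, with 3 and 4 UMIs, was under it too, and its log2 ratio turned to 1.44 (-1.38 to 3.95).

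Between the early lung and the early lesion, 4 members had enough counts, and 2 were at least 2-fold higher in the lung, where 29.9% of 8776 genes were higher and 24.7% lower. Hbegf had 19 UMIs in the early lung, against 3 in the lesion (6.75, 5.17 to 9.33). Erbb2 had 3 and 30 (1.15, -1.41 to 2.63), but without the 1 early lung cell over 10000 UMIs and the large lesion cells it had 1 and 29 (-0.043, -5.95 to 1.99). In that setting Hbegf alone was higher (6.73, 5.15 to 9.32), beside 28.3% of 8579 genes higher and 25.8% lower. Erbb3 (0.22, -3.18 to 1.86) and Grb7 (-0.029) had 2 UMIs or fewer in the lung. With median-of-ratios or TMM scaling 19.6% and 18.7% of all genes were higher and 34.7% and 36.0% lower, and Hbegf alone of the members was at least 2-fold higher. Hbegf was the only member compared that differed at least 2-fold between a lung library and its primary site both with and without the large cells. In the late lung over the tumor it was also the only member still compared without them, so no other member could meet this there.

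In both lung comparisons the ligand-processing genes included Timp3, which encodes an inhibitor of the ADAM proteases. It had 197 UMIs in the late lung and 6 in the tumor (7.07, 6.04 to 8.65), and 82 in the early lung against 12 in the lesion (6.99, 6.16 to 8.05). Adam9, a membrane protease, was higher by 2.39 (1.61 to 3.19) in the late lung over the tumor and by 3.90 (2.97 to 4.79) in the early lung over the lesion. In all, 6 of 8 ligand-processing genes were higher by at least 2-fold in the late lung (median 1.47, all genes 0.015) and 5 of 7 in the early lung (median 1.42, all genes 0.18), against the 22.5% and 29.9% of all genes above, and none was lower. Egf had 0 UMIs in the late lung and 43 in the tumor, at least 3.23-fold lower. Errfi1 had 36 UMIs in the late lung and 409 in the tumor (-1.34, -1.89 to -0.87). Mien1 had 41 and 748 UMIs in the late lung and tumor (-2.03, -2.53 to -1.59), and 29 and 629 in the early lung and lesion (-0.15, -0.76 to 0.37). Of the adaptors, 5 of 12 were higher and 1 lower in the late lung over the tumor, led by Plcg1 (2.88, 1.70 to 4.20), and 6 of 11 were higher and 2 lower in the early lung over the lesion, led by Pik3cb (2.39, 0.23 to 3.90). The Pik3cb value rests on few counts, with 16 UMIs in the lesion and fewer in the early lung. Leaving out cells over 10000 UMIs, Timp3 stood at 7.32 and 6.89 and Adam9 at 3.33 and 3.88 on the log2 scale, 3 of 3 and 4 of 7 ligand-processing genes were higher, and 1 of 6 and 4 of 9 adaptors were higher with 2 and 1 lower.

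Shares of cells also placed Hbegf in the lungs, with overlapping intervals between the 2 lung libraries. With each cell thinned to 500 UMIs, it was detected in 9 of 210 late lung cells (4.29%, 1.98% to 7.98%, exact Clopper-Pearson), 7 of 185 early lung cells (3.78%, 1.53% to 7.64%), 1 of 434 tumor cells (0.230%) and 1 of 1318 lesion cells (0.0759%). Without thinning the shares were 7.62%, 7.03%, 0.461% and 0.228%. The unthinned share was 3.79% in endothelial-like lung cells (1.24% to 8.62%), and this interval overlapped those of the whole late lung (4.42% to 12.1%) and early lung (3.79% to 11.7%). Erbb2 was detected, after thinning, in 0 late lung, 0 early lung, 6 tumor (1.38%, 0.509% to 2.98%) and 3 lesion cells (0.228%, 0.0470% to 0.664%). At 3 cells, a count of 0 allows up to 1.43% of late and 1.62% of early lung cells with an Erbb2 UMI at this depth, which is no limit on cells expressing it. Unthinned, Erbb2 was detected in 29 tumor cells (6.68%, median 1657.5 UMIs) and 30 lesion cells (2.28%, median 2360 UMIs). Beside them stood 2 of 132 endothelial-like lung cells (1.52%, 0.184% to 5.37%, median 750.5 UMIs), taken in advance as a class that should lack it. These cells too were sorted as HER2+, so they are no sure negative class. Neither the tumor share (4.52% to 9.46%) nor the lesion share (1.54% to 3.23%) was separable by its interval from that of the endothelial-like cells. That interval is wide and comes from shallower cells, so the comparison decides nothing about the tumor or the lesion. Erbb3 was detected after thinning in 1 late lung, 0 early lung, 6 tumor (1.38%) and 10 lesion cells (0.759%, 0.364% to 1.39%), so at equal depth its tumor and lesion shares had overlapping intervals.

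The genes most like each member were ranked by Pearson's r of log2(CPM + 10) over 12 groups of cells (a library and a class, with at least 20000 UMIs) among 8296 genes. For Erbb2 they were Crot (0.94), Map2k4 (0.93) and Med22 (0.92), for Erbb3 Fam187b (0.98), Rnf43 (0.98) and Il17re (0.97), for Grb7 Dennd2d (0.99), 4933431E20Rik (0.99) and 2900093K20Rik (0.98), and for Hbegf Gm10767 (0.94), Cryab (0.94) and Stx7 (0.94). Erbb3 and Grb7 had an r of 0.92, Erbb2 and Erbb3 0.43, and Hbegf and Erbb2 0.076. The groups of 1 library share their depth and free RNA, and many values rest on a few counts, so these are descriptions without a test.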

How the data were processed

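The authors deposited raw counts, that is, whole-number UMIs for each gene and barcode of 4 droplet libraries made with the 10x Chromium 3' v2 kit, per the labels' protocols, without normalization. Per the submitters' processing notes, mm10 served as the genome build. Neither the aligner nor the counter, its strand setting or its gene annotation was given in the sources used here. The libraries held 1070236 (late lung), 743765 (early lung), 3403140 (primary tumor) and 6366768 (early lesion) UMIs over all barcodes.

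The members and gene lists were chosen with earlier results of these data known. Cells of all libraries were clustered together with scanpy 1.11.5, without integration and with 62 ERBB genes left out (counts scaled to 10000 per cell, log-transformed, 2000 variable genes, 30 components, 15 neighbours, Leiden resolution 1). A cluster was named from marker lists only with at least 3 markers among its leading genes, and a name ends in "-like". The names were rebuilt here and may differ from the study's.

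Counts were summed over cells per library or class and divided by the UMI total of the sum (CPM). Ratios are log2 ratios after adding 0.5 counts to each sum, with exact 95% conditional intervals of 2 Poisson counts. A gene was compared with at least 20 counts over both sums, and counted as higher or lower at 2-fold. Where 1 sum was 0, the fold is a bound computed with 3 counts in its place, and no fold is given where both sums hold 3 counts or fewer. Intervals hold no spread between mice or cells, and where few cells hold most of the counts they are narrower than they should be. Genes named from the lists are up to 4 per list and comparison by the largest absolute log2 ratio. Alternatives covered cell filters, scaling (among them edgeR 4.0.16 TMM factors in R 4.3.3), added counts, count minimum and clustering. The workflow was tested on simulated data. Gene positions are from GENCODE release M21 on mm10.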

Additional observations from a re-analysis of the deposited data

Results flagged for a closer look

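Erbb2 went in opposite directions in the 2 comparisons of lung with primary site: the log2 ratio was -2.50 for the late lung over the primary tumor and 1.15 for the early lung over the early lesion. The difference between them was not tested, and each lung sum held 3 Erbb2 counts. Without cells over 10000 UMIs the values were -1.47 and -0.043, each with 1 lung count.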

How the results depend on the processing

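With 1 library per group no library could be left out, and no test across libraries was possible. No paired analysis was possible because each group has 1 library. Over the alternatives, the log2 ratio of the primary tumor over the early lesion ranged from 1.12 to 2.70 for Erbb2, 0.83 to 2.43 for Erbb3, 2.25 to 3.12 for Egfr, 0.85 to 1.39 for Grb7 and 3.94 to 5.86 for Tgfa. The ranges of Egfr and Tgfa leave out the setting without cells over 10000 UMIs, where both were under the minimum. There Egfr stood at 1.94 (0.074 to 3.72) and Tgfa at 3.73 (0.81 to 9.77). The count of members at least 2-fold higher in it was 5, and 2 without cells over 10000 UMIs or with a count minimum of 100, where fewer genes are compared, and 4 with median-of-ratios scaling, TMM factors or equal weight, where Grb7 was under 2-fold; with no count minimum 1 member was lower. Late over early lung, 5 members were lower with no count minimum, and Hbegf ranged from -0.66 to -0.039. In the late lung over the tumor, 2 members were higher with every cell weighted equally or with no count minimum and 0 with a minimum of 100; 0 were lower without large cells or with a minimum of 100, and 2 with 5 added counts. Tgfa reversed to 1.02 there when every cell had equal weight, and Hbegf ranged from 4.38 to 6.20. In the early lung over the lesion, 1 member was higher without large cells, with a total without milk protein and mitochondrial genes, with median-of-ratios scaling, with TMM factors or with equal weight, 4 with 5 added counts, 5 with no count minimum and 0 with a minimum of 100; 3 were lower with equal weight. Erbb2 reversed there to -0.043 without large cells and to -1.18 with equal weight. Where fewer cells, fewer genes or other added counts do not by construction set the change, the cause was not tested. Scaling moved the median of all genes from 0.33 to -0.11 (median of ratios) and -0.076 (TMM) in the tumor over the lesion, where Grb7 was 0.90 and 0.93, and from 0.18 to -0.37 and -0.44 in the early lung over the lesion, where 19.6% of genes were then higher and 34.7% lower, or 18.7% and 36.0%. In the tumor over the lesion 14.9% were higher and 12% lower without large cells. Of 210 class levels, 56 free RNA levels and 112 shares under alternatives, 207, 55 and 96 stayed within the interval of the value given. Depth limits the lungs: a count of 3 makes 7.28 CPM in the late and 14.7 CPM in the early lung.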
